A study of Mus musculus with 2 samples.

Results

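The common gamma chain cytokines and receptors were described as 10 of the 32589 genes counted by scRNA-Seq of shYT tumor-bearing livers. They were 4 cytokine genes (*Il2*, *Il7*, *Il15* and *Il21*), 5 genes of private or partly shared receptor chains (*Il2ra*, *Il2rb*, *Il7r*, *Il15ra* and *Il21r*) and *Il2rg*, the gene of the shared chain. Members were taken by symbol, and each of the 10 symbols occurred once. Mice carried a doxycycline-inducible shRNA against YAP and TAZ (shYT) under the ubiquitous CAG-rtTA3 driver, and CCA was induced by HDTVI of NICD and myr-AKT. Doxycycline started on day 25 in both groups, after which one was given PBS and the other the anti–PD-1 clone RMP1-14 on days 26, 29 and 32. Livers were taken on day 33. Both groups were shYT, so YAP/TAZ depletion itself was not compared. Each group was 1 library. The study gives several replicates per group for this experiment, but the labels name neither the animals in a library nor the shYT line, and cells were not assigned to animals. No test between the groups was therefore possible, and every difference below describes these 2 libraries.

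IL-2, IL-7, IL-15 and IL-21 signal through receptors that contain the common gamma chain, which binds the kinase JAK3, while the partner chains bind JAK1. IL-2 and IL-15 share the beta chain (*Il2rb*), and each has its own alpha chain, which raises affinity for IL-2 (*Il2ra*, CD25) or presents IL-15 to neighboring cells (*Il15ra*). IL-7 keeps naive and memory T cells alive through *Il7r*, and effector T cells carry little of that receptor. IL-21 is made mainly by helper CD4 T cells and acts on T, NK and B cells and on myeloid cells.

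After filtering, 15531 of 19397 barcodes remained in the PBS library and 16360 of 19451 in the anti–PD-1 library, with medians of 3159 and 2990 unique molecular identifiers (UMIs) per cell. Cells were gated by lineage markers, none of them a member, and 18 classes held at least 50 cells in both libraries, while 11.4% and 13.1% of cells were left unassigned. In each class the class's own marker list was at least 4.03 times as high as in any other lineage, except classical monocytes, where it was 1.84 and 2.39 times that of plasma cells. The 2 libraries shared 219 barcodes, of which 145 passed the filters in both. Levels are CPM (UMIs of the gene per 1000000 UMIs of the summed class) followed by the exact 95% Poisson interval in brackets. A log2 ratio sets the anti–PD-1 level, plus 5 CPM, over the PBS level, plus 5 CPM, and its 95% counting interval also stands in brackets. These intervals cover counting error only and not differences between animals. *Yap1* stood at 10.2 CPM [7.81, 13.01] in PBS and 11.9 CPM [8.24, 16.6] in anti–PD-1 tumor or biliary epithelial cells, and *Wwtr1*, the gene of TAZ, at 12.4 CPM [9.81, 15.5] and 7.35 CPM [4.55, 11.2]. In CAFs *Wwtr1* was at 104 CPM [91.3, 118] and 66.4 CPM [51.2, 84.6], and these intervals did not overlap. In endothelial cells *Wwtr1* was at 124 CPM [111, 139] and 83.6 CPM [59.7, 114], with intervals that overlapped. The *Yap1* intervals overlapped in CAFs and in endothelial cells. Y-linked transcripts without *Xist* were found in 1481 PBS and 7861 anti–PD-1 cells, and *Xist* without Y-linked transcripts in 6686 and 4, so the libraries differed in these sex-linked marks. The PBS library held both kinds of cell, and the anti–PD-1 library almost only the former. Treatment therefore cannot be told apart from sex or from the animals in any ratio below.

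The 4 receptor genes whose levels are set side by side below are shown first by the 250 bases before a RefSeq transcription start (build GRCm38.p6). *Il2rg* and *Il21r* are shown because they were higher in the anti–PD-1 library in most classes, and *Il2ra* and *Il15ra* because they are neighbors on the same strand with unlike profiles. *Il2rg* (ENSMUSG00000031304, chrX:101264378-101268255, reverse strand in mm10) has its window at chrX:101268256-101268505, *Il21r* (ENSMUSG00000030745, chr7:125603429-125633570, forward strand) at chr7:125603179-125603428, *Il2ra* (ENSMUSG00000026770, chr2:11642807-11693193, forward strand) at chr2:11642542-11642791 and *Il15ra* (ENSMUSG00000023206, chr2:11705290-11734317, forward strand) at chr2:11705043-11705292. Each is written in the direction of its gene, 5′ to 3′, and the capitals in *Il2ra* mark a match to the NF-kB motif on the opposite strand.
Il2rg: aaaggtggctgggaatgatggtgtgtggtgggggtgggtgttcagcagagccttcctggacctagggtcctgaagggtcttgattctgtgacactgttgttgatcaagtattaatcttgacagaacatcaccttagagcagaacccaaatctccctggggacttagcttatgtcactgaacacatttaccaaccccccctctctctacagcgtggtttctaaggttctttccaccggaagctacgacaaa
Il21r: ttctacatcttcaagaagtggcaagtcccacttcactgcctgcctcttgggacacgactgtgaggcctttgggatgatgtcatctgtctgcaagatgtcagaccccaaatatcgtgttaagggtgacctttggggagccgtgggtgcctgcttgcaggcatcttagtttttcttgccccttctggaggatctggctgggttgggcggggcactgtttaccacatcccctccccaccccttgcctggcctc
Il2ra: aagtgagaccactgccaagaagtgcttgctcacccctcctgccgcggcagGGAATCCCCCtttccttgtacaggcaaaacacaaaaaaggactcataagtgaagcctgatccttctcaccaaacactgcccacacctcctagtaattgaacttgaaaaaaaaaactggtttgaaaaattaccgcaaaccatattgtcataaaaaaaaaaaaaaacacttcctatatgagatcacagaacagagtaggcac
Il15ra: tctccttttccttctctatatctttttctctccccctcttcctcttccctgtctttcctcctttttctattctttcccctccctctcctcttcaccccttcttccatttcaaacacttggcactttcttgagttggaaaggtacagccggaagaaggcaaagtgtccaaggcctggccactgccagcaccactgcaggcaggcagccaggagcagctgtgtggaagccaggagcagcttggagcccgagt
The motifs searched on both strands were GAS (TTCNNNGAA), IRF (GAAA and GAAA with 2 bases between), AP-1 (TGANTCA) and NF-kB (GGG and TTCC with 3 bases between), which occur in 7.02%, 2.98%, 6.75% and 4.65% of 32851 windows of 250 bases. The *Il2ra* match begins 200 bases before the start. None of the 4 motifs was found in the windows shown for *Il2rg*, *Il21r* and *Il15ra*, while a later RefSeq start of *Il15ra* had an AP-1 match. Between *Il2ra* and *Il15ra* lie 12096 bases of chromosome 2 with no annotated gene, and between *Il2* and *Il21* lie 96799 bases of chromosome 3 with 1 annotated gene, *Gm12532*.

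The UMIs of the cytokine genes lay in different classes. T cells held 88.2% and 94.1% of *Il21* UMIs in the PBS and anti–PD-1 library and 57.1% and 59.0% of *Il2* UMIs. *Il15* lay mainly in neutrophils and macrophages, and *Il7* had similar shares in tumor or biliary epithelial cells (26 UMIs) and endothelial cells (25 UMIs) of the PBS library. The 188 to 189 UMIs of *Il2* and the 76 to 85 of *Il21* per library make their class levels uncertain, whereas *Il15* had 1540 PBS and 3102 anti–PD-1 UMIs.

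**Figure D1:**
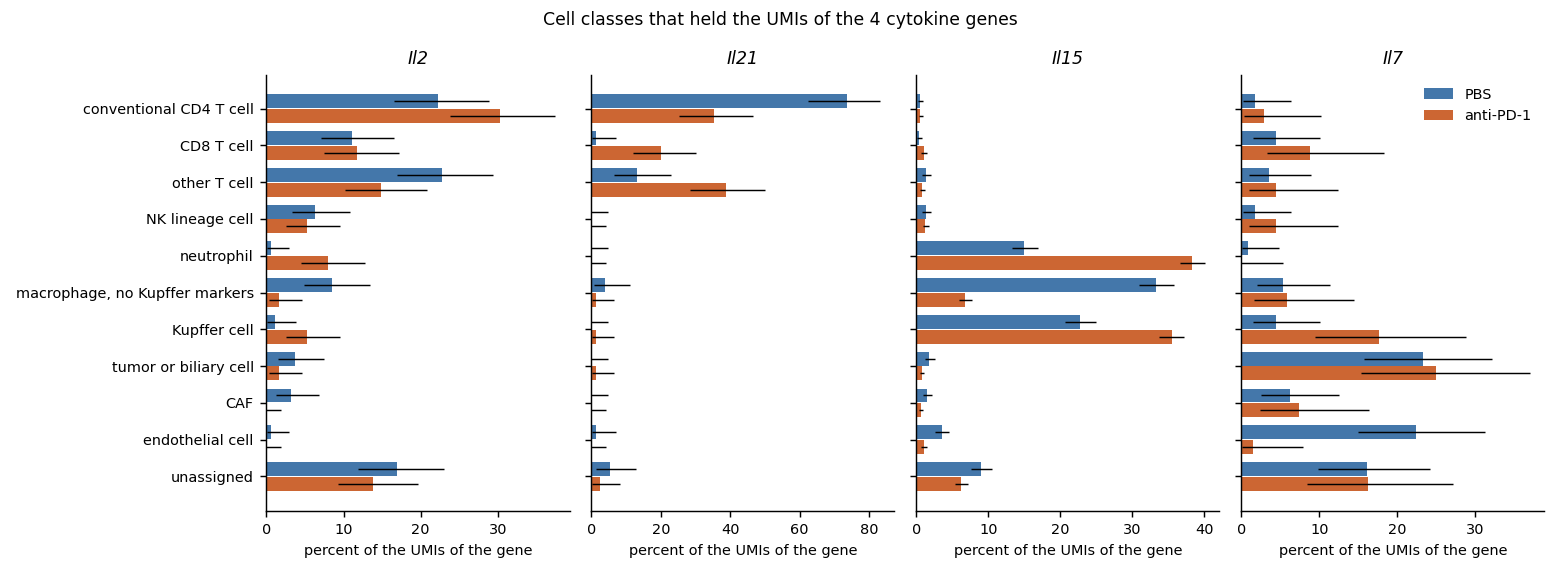
Share of all UMIs of *Il2*, *Il21*, *Il15* and *Il7* (x axis, percent) that fell in chosen cell classes and in unassigned cells (y axis) in the PBS (blue) and anti–PD-1 (orange) library, with exact 95% binomial intervals. Other classes, among them B cells, Treg cells and classical monocytes, are not drawn, so the bars do not hold all UMIs. Neutrophils held 15.0% of PBS and 38.4% of anti–PD-1 *Il15* UMIs, and conventional CD4 T cells held 73.7% and 35.3% of *Il21* UMIs, while 21 of the 85 anti–PD-1 *Il21* UMIs lay in 1 cell of the other T cell class.

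*Il2* (ENSMUSG00000027720, chr3:37120523-37125959, reverse strand), the T cell growth factor gene, was highest in conventional CD4 T cells, at 16.7 CPM [12.1, 22.6] with PBS and 16.9 CPM [12.8, 21.9] with anti–PD-1. The log2 ratio there was 0.0096 [−0.43, 0.45] and thus spanned 0. Few cells carried it, with 30 of 693 PBS cells and 29 of 806 anti–PD-1 cells, and 1 anti–PD-1 cell held 14 of that library's 57 UMIs in the class. In cells with at most 1 marker of another lineage, 1 anti–PD-1 UMI was left and the log2 ratio was −2.13. *Il2* of CD8 T cells stood at 6.40 CPM [3.96, 9.78] with PBS and 3.13 CPM [1.963, 4.74] with anti–PD-1, a log2 ratio of −0.49 [−0.90, −0.070]. Of the 4 classes with enough *Il2* UMIs for a ratio (at least 20 over both libraries), 1 had an interval below 0, the CD8 T cells, and none had one above. With the PBS library limited to cells with *Xist* but not Y-linked UMIs, 7 PBS UMIs were left and the CD8 value was −0.20 [−0.75, 0.35]. Over all genes and classes, 12.7% of 180614 gene and class pairs had an interval above 0 and 23.6% below. Neutrophils held 1 PBS and 15 anti–PD-1 UMIs. *Il2* overlaps *Adad1* on the other strand, and the handling of strand in the counting is not given in the sources used here.

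*Il21* (ENSMUSG00000027718, chr3:37222759-37232636, reverse strand), the cytokine gene of follicular and other helper T cells, was at 22.3 CPM [16.8, 29.0] with PBS and 8.88 CPM [5.99, 12.7] with anti–PD-1 in conventional CD4 T cells. This was a log2 ratio of −0.98 [−1.43, −0.52]. T cells outside the CD8, conventional CD4, Treg and gamma-delta gates were called other T cells. They had no *Foxp3* UMI and either none of *Cd4*, *Cd8a*, *Cd8b1* and *Trdc* or UMIs of both *Cd4* and *Cd8a* or *Cd8b1*. In these the order was the opposite, with 2.76 CPM [1.32, 5.07] with PBS and 9.36 CPM [6.44, 13.1] with anti–PD-1 and a log2 ratio of 0.89 [0.44, 1.34]. That gap rested on 1 anti–PD-1 cell, which held 21 of the 33 UMIs, against 3 of 10 in the PBS cell with the most. Without the cell with the most UMIs in each library, an alternative chosen after the values were seen, the levels were 1.93 CPM [0.78, 3.98] and 3.41 CPM [1.76, 5.95] and the log2 ratio was 0.28 [−0.17, 0.72], from 7 and 12 UMIs and so below the 20 otherwise needed for a ratio. In conventional CD4 T cells the same step gave −0.93 [−1.40, −0.47]. CD8 T cells held 1 PBS and 17 anti–PD-1 UMIs. The share of all *Il21* UMIs that lay in conventional CD4 T cells was 73.7% (62.3 to 83.1) with PBS and 35.3% (25.2 to 46.4) with anti–PD-1, and 70.1% (57.7 to 80.7) and 46.9% (34.3 to 59.8) without the cell with the most UMIs in each library. These intervals treat UMIs of 1 cell as independent. In conventional CD4 T cells with a *Cxcr5* or *Bcl6* UMI, genes of follicular helper cells, *Il21* was at 63.8 CPM [43.0, 91.1] in 91 PBS cells and 17.3 CPM [9.21, 29.6] in 130 anti–PD-1 cells, a log2 ratio of −1.63 [−2.40, −0.85]. *Il21* sat in few cells, 22 PBS and 20 anti–PD-1 conventional CD4 T cells, and the most in any of them was 9 and 5 UMIs. In each library 1 T cell carried UMIs of both *Il2* and *Il21*.

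*Il15* (ENSMUSG00000031712, chr8:82331632-82403222, reverse strand), the cytokine gene that maintains NK and memory CD8 T cells, was highest in neutrophils, at 105 CPM [91.6, 119] with PBS and 168 CPM [158, 177] with anti–PD-1, a log2 ratio of 0.66 [0.46, 0.85]. It was 1.02 with median-ratio scaling and 1.65 with the PBS library limited to cells with *Xist* but not Y-linked UMIs. After cells were thinned to 1000 UMIs, 9.28% (7.65 to 11.1) of the PBS cells and 14.3% (13.01 to 15.6) of the anti–PD-1 cells carried a UMI in that class, against 0.538% and 0.666% of B cells. Thinning left out all cells with fewer than 1000 UMIs, among them 122 of 1254 PBS and 103 of 2924 anti–PD-1 neutrophils. Mature migratory dendritic cells came next, at 75.1 CPM [49.1, 110.1] with PBS and 88.9 CPM [62.3, 123] with anti–PD-1, and their intervals overlapped. Kupffer cells, the resident macrophages of the liver, stood at 30.7 CPM [27.5, 34.0] with PBS and 49.7 CPM [46.8, 52.7] with anti–PD-1, a log2 ratio of 0.62 [0.47, 0.77]. Macrophages without Kupffer markers were at 19.97 CPM [18.3, 21.8] with PBS and 32.0 CPM [27.8, 36.6] with anti–PD-1, a log2 ratio of 0.57 [0.37, 0.76]. Endothelial cells had the widest gap, with 20.4 CPM [15.3, 26.7] with PBS and 66.9 CPM [45.7, 94.4] with anti–PD-1 from 54 and 32 UMIs, a log2 ratio of 1.50 [0.94, 2.06]. The 6 neutrophil markers, none of them at 0, summed to 178 CPM in PBS and 1156 CPM in anti–PD-1 endothelial cells, against 85391 and 89621 CPM in neutrophils, and their part in the endothelial *Il15* values was not tested. Intervals lay above 0 in 8 of 16 classes with enough UMIs and below 0 in none, against 12.7% and 23.6% of all gene and class pairs.

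*Il7* (ENSMUSG00000040329, chr3:7569994-7613760, reverse strand), the gene of the stromal T cell survival cytokine, was near the limit of detection, with 112 PBS and 68 anti–PD-1 UMIs. Endothelial cells held 25 UMIs in 545 PBS cells and 1 UMI in 103 anti–PD-1 cells, at 9.46 CPM [6.12, 14.0] and 2.09 CPM [0.0529, 11.6], and 4 of the 25 UMIs came from 1 cell. The log2 ratio there was −1.03 [−1.94, −0.12], and with a pseudocount of 1 CPM in place of 5 it was −1.76 [−3.74, 0.22], an interval that included 0. In tumor or biliary epithelial cells the level was 4.197 CPM [2.74, 6.15] with PBS and 5.95 CPM [3.47, 9.53] with anti–PD-1, with a log2 ratio of 0.25 [−0.20, 0.70] that included 0. CAFs held 7 and 5 UMIs, at 3.01 CPM [1.21, 6.20] and 5.11 CPM [1.66, 11.9], too few for a ratio.

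**Figure D2:**
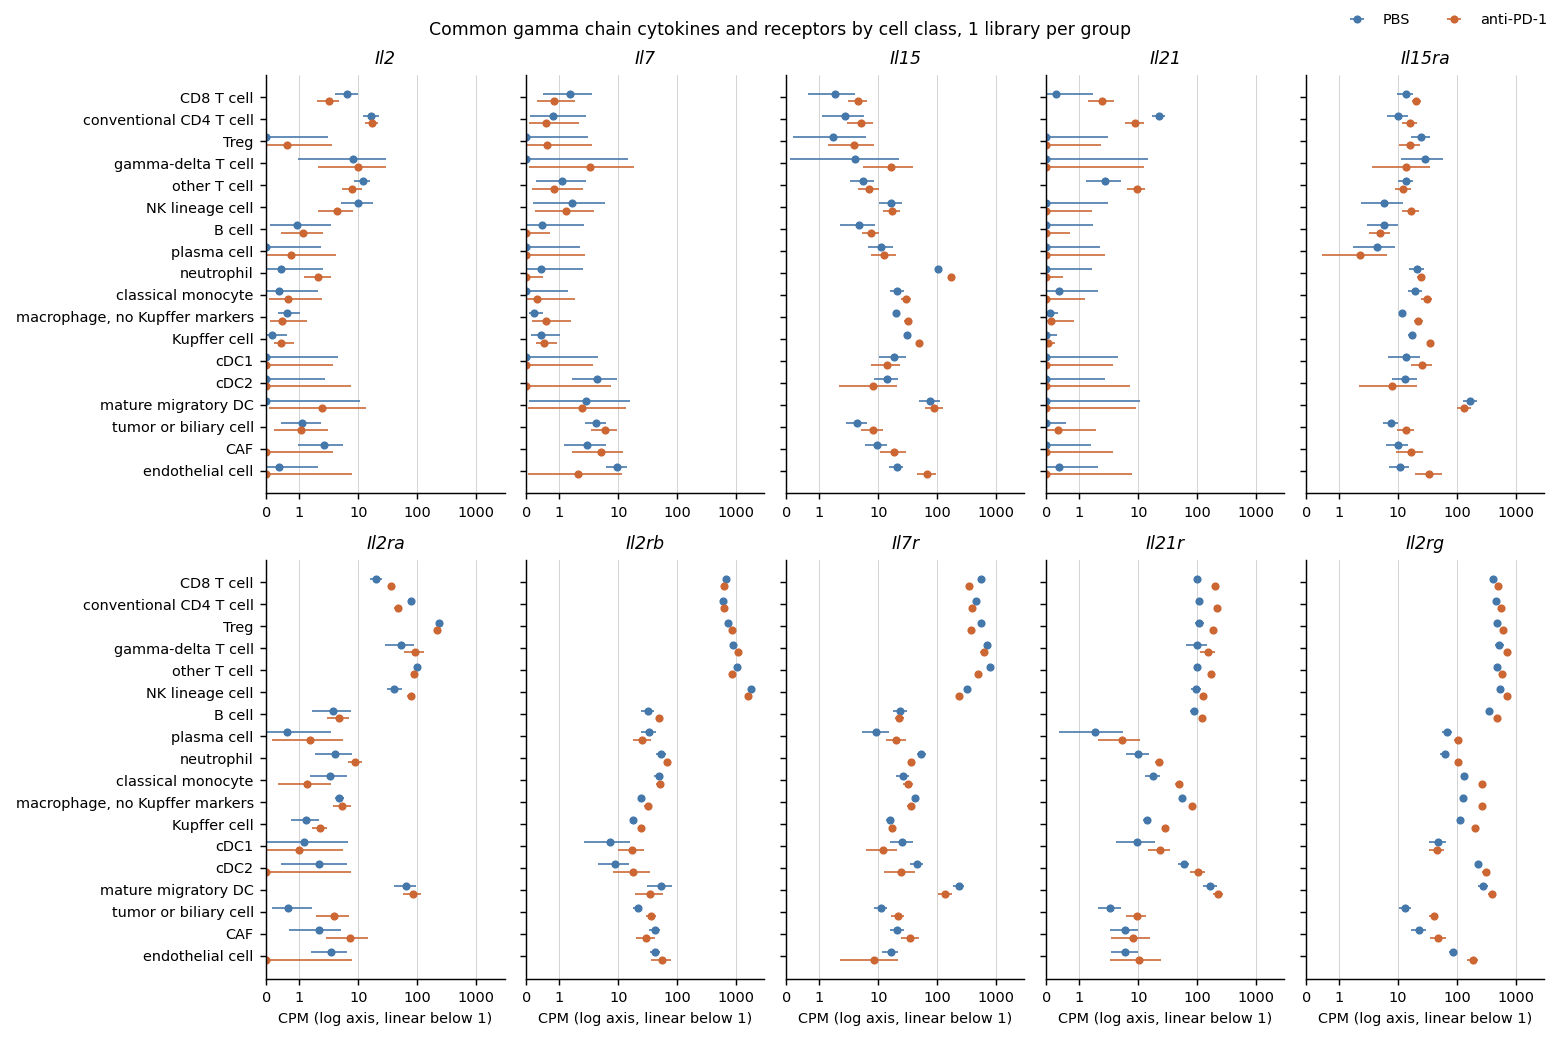
Level of the 10 genes (x axis, CPM on a log axis that is linear below 1) in each of 18 cell classes (y axis) in the PBS (blue) and anti–PD-1 (orange) library. Bars are exact 95% Poisson intervals, and the *Il2rb*, *Il7r* and *Il2rg* points of T and NK lineage cells lie above 200 CPM.

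The private alpha chain genes are neighbors, and their profiles over classes differed. *Il2ra*, the high-affinity chain for IL-2, was highest in regulatory T cells (Treg cells), at 235 CPM [208, 264] with PBS and 215 CPM [193, 239.5] with anti–PD-1. The Treg intervals overlapped and the log2 ratio was −0.12 [−0.35, 0.10]. In conventional CD4 T cells *Il2ra* was lower in the anti–PD-1 library, at 78.8 CPM [68.2, 90.6] with PBS and 47.6 CPM [40.6, 55.6] with anti–PD-1, a log2 ratio of −0.67 [−0.95, −0.39]. CD8 T cells had more of it there, at 20.1 CPM [15.6, 25.6] with PBS and 35.9 CPM [31.6, 40.6] with anti–PD-1, a log2 ratio of 0.70 [0.38, 1.02]. NK lineage cells moved the same way as CD8 T cells, from 40.8 CPM [30.2, 54.0] to 77.8 CPM [66.7, 90.1], a log2 ratio of 0.85 [0.44, 1.26]. Over 11 classes with enough UMIs, 4 intervals lay above 0 and 1 below, against 12.7% and 23.6% of all gene and class pairs. Besides CD8 T and NK lineage cells, those above 0 were neutrophils (9 PBS and 63 anti–PD-1 UMIs) and Kupffer cells (15 and 50 UMIs), both near the floor. Without the cell with the most *Il2ra* UMIs in each library, their levels were 3.63 and 8.04 CPM and 1.05 and 2.08 CPM. After thinning, 1.28% (0.662 to 2.22) of the PBS cells and 2.15% (1.44 to 3.07) of the anti–PD-1 cells among CD8 T cells had an *Il2ra* UMI, against 0.353% and 0.354% of neutrophils, and without thinning the CD8 shares were 4.84% and 8.54%. With cells limited to at most 1 marker of any other lineage, the CD8 log2 ratio was 0.25 [−0.49, 0.99] and the conventional CD4 ratio was −0.32 [−0.90, 0.27]. The conventional CD4 ratio was −0.19 [−0.92, 0.53] in cells thinned to 1000 UMIs, and the NK lineage ratio was 0.44 [−0.13, 1.01] with the PBS library limited to cells with *Xist* but not Y-linked UMIs. *Il2ra* overlaps the annotated *Gm37881* on the same strand.

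Finer gates were chosen after the class values were seen. Cycling CD8 T cells held 3 PBS and 86 anti–PD-1 *Il2ra* UMIs, at 5.99 CPM [1.24, 17.5] and 42.3 CPM [33.8, 52.2], a log2 ratio of 2.10 [1.17, 3.04]. CD8 T cells that were not cycling were at 22.6 CPM [17.4, 29.0] and 33.3 CPM [28.4, 38.7], a log2 ratio of 0.47 [0.12, 0.82], which turned to −0.093 in cells with at most 1 marker of another lineage. NK lineage cells with ILC1 genes (*Cxcr6*, *Itga1* or *Tnfsf10*) and no conventional NK gene stood at 51.9 CPM [34.5, 75.0] and 141 CPM [113, 172], a log2 ratio of 1.36 [0.79, 1.92]. Conventional CD4 T cells with *Cxcr5* or *Bcl6* went the other way, from 78.7 CPM [55.4, 108] to 19.96 CPM [11.2, 32.9], a log2 ratio of −1.75 [−2.47, −1.02]. Gates that need a UMI depend on depth, and the median depth of the CD4 T cells with *Cxcr5* or *Bcl6* was 4242 UMIs with PBS and 4882 with anti–PD-1.

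**Figure D3:**
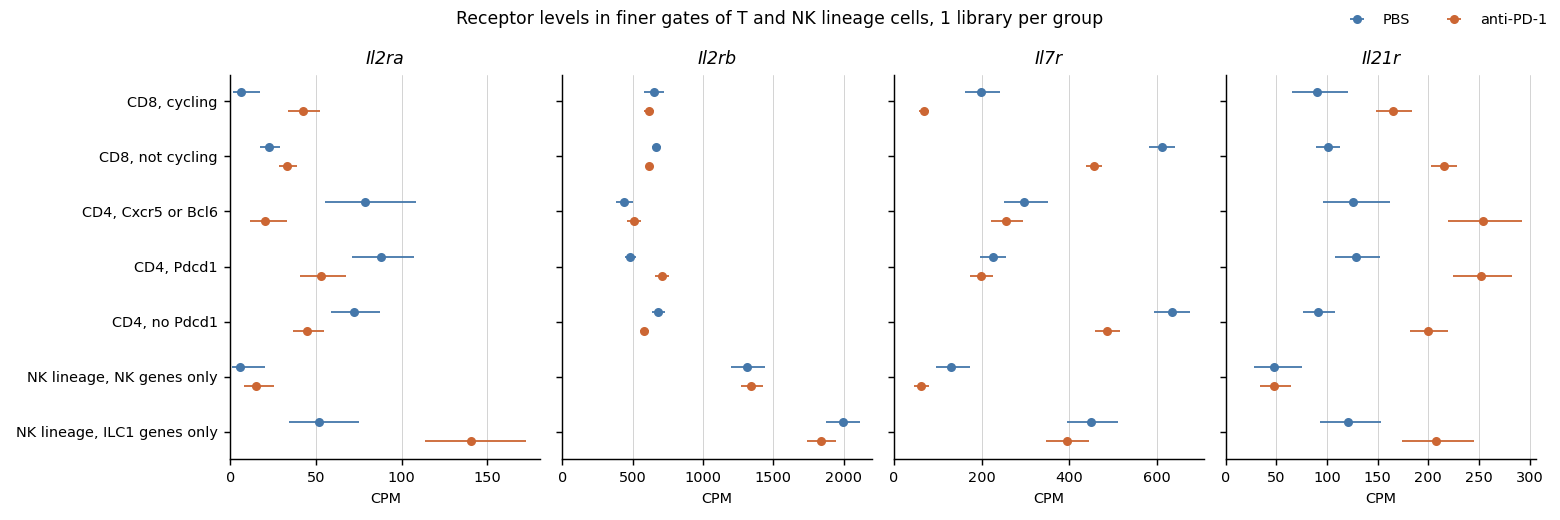
Levels of *Il2ra*, *Il2rb*, *Il7r* and *Il21r* (x axes, CPM) in finer gates of CD8 T, conventional CD4 T and NK lineage cells (y axis) in the PBS (blue) and anti–PD-1 (orange) library, with exact 95% Poisson intervals. *Il7r* was lower in cycling than in other CD8 T cells of either library, and *Il2ra* was highest in anti–PD-1 NK lineage cells with ILC1 genes only.

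*Il15ra*, the chain that presents IL-15, was highest in mature migratory dendritic cells, at 165 CPM [125, 213] with PBS and 131 CPM [98.0, 171] with anti–PD-1 from 57 and 53 UMIs, and these intervals overlapped. In Kupffer cells it was higher in the anti–PD-1 library, at 17.2 CPM [14.8, 19.7] with PBS and 34.9 CPM [32.5, 37.4] with anti–PD-1, a log2 ratio of 0.85 [0.67, 1.03]. Macrophages without Kupffer markers showed the same order, with 11.8 CPM [10.5, 13.2] with PBS and 22.0 CPM [18.6, 25.9] with anti–PD-1 and a log2 ratio of 0.69 [0.46, 0.91]. In endothelial cells the log2 ratio was 1.30 [0.59, 2.02] from 28 and 16 UMIs. Of 16 classes with enough UMIs, 7 had an interval above 0 and none had one below, against 12.7% and 23.6% of all gene and class pairs. Intervals of both *Il15* and *Il15ra* lay above 0 in 6 classes, Kupffer cells, macrophages without Kupffer markers, endothelial cells, classical monocytes, tumor or biliary epithelial cells and CD8 T cells. The *Il15* intervals of the last 3 began at 0.019, 0.036 and 0.095, and that of tumor or biliary epithelial cells included 0 (0.32 [−0.13, 0.77]) without the cell with the most UMIs in each library. The medians over the 12 interferon-gamma response genes were 1.66, 1.55, 2.54, 1.48, 2.37 and 0.39 on the log2 scale in the same order, and 1.80 in neutrophils, in which the *Il15ra* interval included 0. The median of this list was above 0 in all 18 classes, from 0.36 to 2.54, and was 1.24 in CAFs, which were not among the 6. The part of the interferon-gamma response in the *Il15* values was not tested.

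*Il2rb* (ENSMUSG00000068227, chr15:78479256-78495271, reverse strand), the signaling chain for IL-2 and IL-15, was highest in NK lineage cells, at 1743 CPM [1669, 1819] with PBS and 1589 CPM [1538, 1642] with anti–PD-1, a log2 ratio of −0.13 [−0.21, −0.056]. CD8 T cells stood at 667 CPM [639, 695] with PBS and 616 CPM [598, 635] with anti–PD-1, a log2 ratio of −0.11 [−0.19, −0.039]. These differences were small, and with the libraries scaled by the median ratio of measured genes both turned to slightly positive values, 0.035 in NK lineage cells and 0.016 in CD8 T cells. Limited to cells with Y-linked but not *Xist* UMIs, the CD8 value was 0.44. Treg cells went the other way, with 720.0 CPM [672, 770.1] with PBS and 832 CPM [788, 879] with anti–PD-1 and a log2 ratio of 0.21 [0.084, 0.33]. Other T cells were at 1017 CPM [985, 1051] with PBS and 858 CPM [827, 889] with anti–PD-1, a log2 ratio of −0.25 [−0.31, −0.18], which turned to 0.028 against PBS cells with *Xist* but not Y-linked UMIs. Over 18 classes, 7 intervals lay above 0 and 3 below, against 9 above and 1 below with median-ratio scaling. The 3 below were the CD8 T, other T and NK lineage cells. The 7 above were Treg and gamma-delta T cells and, at far lower levels, B cells, neutrophils, tumor or biliary epithelial cells, Kupffer cells and macrophages without Kupffer markers. Without the cell with the most *Il2rb* UMIs in each library, neutrophils stood at 49.9 CPM with PBS and 65.5 CPM with anti–PD-1. Of all gene and class pairs, 12.7% had an interval above 0 and 23.6% below. After thinning, 74.5% (70.1 to 78.6) of the PBS cells and 74.2% (70.5 to 77.7) of the anti–PD-1 cells in the NK lineage class carried an *Il2rb* UMI, against 2.74% and 3.72% of neutrophils.

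*Il7r* (ENSMUSG00000003882, chr15:9505788-9530176, reverse strand), the IL-7 receptor chain that marks naive and memory T cells, was lower in the anti–PD-1 library in the CD8, conventional CD4, Treg, other T and NK lineage classes. In CD8 T cells it was at 549 CPM [524, 575] with PBS and 344 CPM [330.3, 358] with anti–PD-1, a log2 ratio of −0.67 [−0.75, −0.58]. Other T cells went from 771 CPM [742, 799.8] to 482 CPM [459, 505], a log2 ratio of −0.67 [−0.76, −0.59]. Treg cells were at 547 CPM [506, 591] with PBS and 371 CPM [342, 403] with anti–PD-1, a log2 ratio of −0.55 [−0.71, −0.39]. Conventional CD4 T cells showed a smaller gap, with 459 CPM [433, 487] with PBS and 386 CPM [366, 408] with anti–PD-1 and a log2 ratio of −0.25 [−0.36, −0.13]. In NK lineage cells the log2 ratio was −0.40 [−0.58, −0.21], and in mature migratory dendritic cells, which carried 231 CPM [183, 288] in the PBS library, it was −0.75 [−1.23, −0.27]. Over 18 classes, 10 intervals lay below 0 and 3 above, where 23.6% of all gene and class pairs had one below and 12.7% above. The counts were 6 below and 4 above with median-ratio scaling and 7 below and 3 above without marked doublets. The 3 above 0 before these steps were plasma cells, tumor or biliary epithelial cells and CAFs, all under 40 CPM in both libraries. None of these 3 stayed above 0 without the cell with the most *Il7r* UMIs in each library, where plasma cells were at 0.66 [−0.039, 1.35], tumor or biliary epithelial cells, in which 1 cell held 22 of 61 anti–PD-1 UMIs, at 0.35 [−0.063, 0.76] and CAFs at 0.31 [−0.27, 0.90], while 10 intervals lay below 0.

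The *Il7r* gap of CD8 T cells was found in cycling and in other cells. Cycling cells were at 199.6 CPM [162, 243] and 68.3 CPM [57.4, 80.7], a log2 ratio of −1.48 [−1.84, −1.13]. Cells that were not cycling were at 612 CPM [583, 641] and 456 CPM [438, 475], a log2 ratio of −0.42 [−0.51, −0.33], and the difference between these gates was not tested. The make-up of the class differed as well, since cycling cells were 74 of 950 PBS and 224 of 1370 anti–PD-1 CD8 T cells. Within the PBS library, CD8 T cells that carried Y-linked but not *Xist* UMIs stood at 901 CPM [792, 1021] in 75 cells and those that carried *Xist* but not Y-linked UMIs at 423 CPM [392, 456] in 409 cells. The log2 ratio of CD8 T cells was −1.48 when both libraries were limited to the former kind of cell and −0.30 when the PBS library was limited to the latter. With the same limit on the PBS library, conventional CD4 T cells turned to 0.16.

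*Il21r*, the receptor chain for IL-21, was higher in the anti–PD-1 library in most classes. CD8 T cells were at 99.0 CPM [88.5, 110.4] with PBS and 201 CPM [190.4, 212] with anti–PD-1, a log2 ratio of 0.98 [0.82, 1.15]. Conventional CD4 T cells were at 107 CPM [94.7, 121] with PBS and 218 CPM [203, 234] with anti–PD-1, a log2 ratio of 0.99 [0.80, 1.19]. Treg cells followed at 108 CPM [90.5, 129] with PBS and 183 CPM [162, 205] with anti–PD-1, a log2 ratio of 0.73 [0.44, 1.02]. The gap was narrower in B cells, at 87.9 CPM [75.7, 101] with PBS and 120.1 CPM [111, 130.0] with anti–PD-1 with a log2 ratio of 0.43 [0.21, 0.65], and in NK lineage cells, with 0.38 [0.077, 0.67]. The B cell value was 0.16 [−0.36, 0.68] in cells with Y-linked but not *Xist* UMIs and 0.80 with the PBS library limited to cells with *Xist* but not Y-linked UMIs. The NK lineage value turned to −0.61 in cells thinned to 1000 UMIs and gated again and to −0.048 in cells with at most 1 marker of another lineage, while the share of NK lineage cells of the gate before thinning that kept a UMI was 8.96% (6.42 to 12.1) with PBS and 8.98% (6.80 to 11.6) with anti–PD-1. Mature migratory dendritic cells had the highest level of any class in both libraries, at 168 CPM [127, 217] with PBS and 227 CPM [183, 279] with anti–PD-1, and their intervals overlapped. Of 17 classes with enough UMIs, 13 had an interval above 0 and none below, against 12.7% and 23.6% of all gene and class pairs. The median log2 ratio was 0.73, with the highest in classical monocytes, at 1.26 [0.87, 1.64]. After thinning, 9.37% (7.58 to 11.4) of the PBS cells and 17.9% (15.8 to 20.001) of the anti–PD-1 cells among CD8 T cells had an *Il21r* UMI, against 0.355% and 2.77% of tumor or biliary epithelial cells. Cycling CD8 T cells showed 89.8 CPM [65.5, 120.2] and 165 CPM [148, 184], a log2 ratio of 0.84 [0.42, 1.27], and those not cycling 101 CPM [89.2, 113] and 215 CPM [203, 229], a log2 ratio of 1.06 [0.88, 1.24].

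*Il2rg*, the shared chain without which none of these receptors signals, was higher in the anti–PD-1 library in 17 of 18 classes by its counting interval and lower in none. Of all gene and class pairs, 12.7% were higher and 23.6% lower in this way. Lymphocytes carried most of it per UMI, and their gaps were modest. CD8 T cells were at 399 CPM [377, 421] with PBS and 483 CPM [467, 499] with anti–PD-1, a log2 ratio of 0.27 [0.18, 0.36]. NK lineage cells were at 531 CPM [490.3, 574] with PBS and 709 CPM [674, 744] with anti–PD-1, a log2 ratio of 0.41 [0.28, 0.54]. B cells were at 351 CPM [327, 378] with PBS and 467 CPM [449, 486] with anti–PD-1, a log2 ratio of 0.41 [0.29, 0.52]. The gaps were wider in macrophages. Those without Kupffer markers were at 126 CPM [121, 130.2] with PBS and 266 CPM [254, 279] with anti–PD-1, a log2 ratio of 1.05 [0.97, 1.13], and Kupffer cells at 110.3 CPM [104, 117] with PBS and 198 CPM [192, 204] with anti–PD-1, a log2 ratio of 0.81 [0.73, 0.90]. The class without Kupffer markers held 3096 PBS and 1108 anti–PD-1 cells, with median depths of 7718.5 and 4771 UMIs. Kupffer cells numbered 1226 and 2282. The 4 Kupffer markers summed to 103 CPM in PBS and 261 CPM in anti–PD-1 T cells. Their part in the split of macrophages was not tested. After thinning, 10.2% (9.18 to 11.4) of the PBS cells and 20.2% (17.6 to 23.0) of the anti–PD-1 cells among macrophages without Kupffer markers had a UMI, against 2.04% and 5.85% of tumor or biliary epithelial cells. In this macrophage class thinning left out 109 of 3096 PBS and 227 of 1108 anti–PD-1 cells, so the shares cover differently selected cells. The highest log2 ratio was in tumor or biliary epithelial cells themselves, 1.30 [0.97, 1.63], at 13.2 CPM [10.5, 16.4] with PBS and 39.9 CPM [32.9, 47.9] with anti–PD-1. cDC1, the dendritic cells that cross-present antigen, were the exception, at 47.2 CPM [33.6, 64.5] with PBS and 45.2 CPM [32.9, 60.4] with anti–PD-1. *Il2rg* lies on the X chromosome and overlaps *Gm20489* on the same strand.

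**Figure D4:**
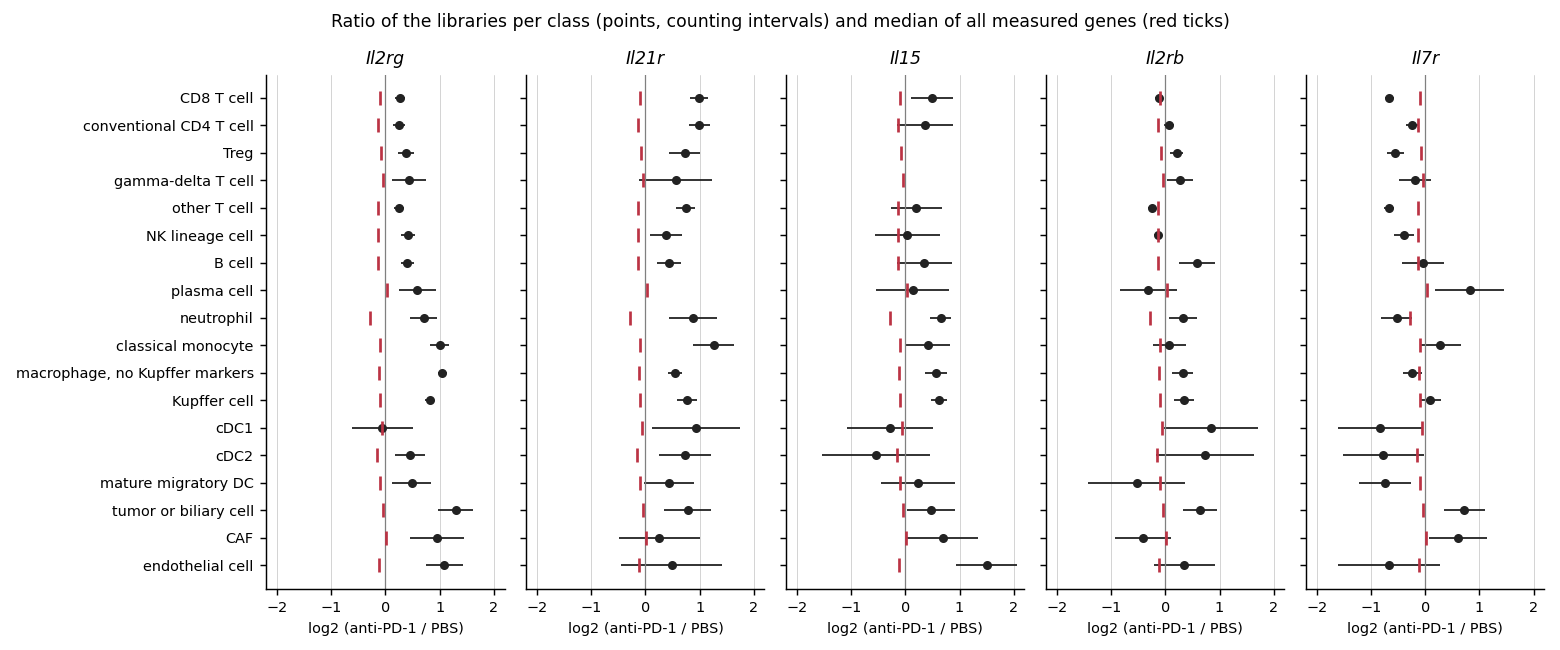
Log2 ratio of anti–PD-1 over PBS (x axes) of *Il2rg*, *Il21r*, *Il15*, *Il2rb* and *Il7r* in 18 cell classes (y axis). Black points carry 95% counting intervals, red ticks are the median of all genes measured in the class, and a missing point has under 20 UMIs. *Il2rg* lies right of 0 in 17 classes, and *Il7r* lies left of 0 in the CD8, Treg and other T cell classes.

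Several values moved with the libraries beside these genes. The median log2 ratio of all measured genes was −0.099 in CD8 T cells, −0.14 in conventional CD4 T and NK lineage cells and −0.11 in macrophages without Kupffer markers. The 14 early response and dissociation genes had a median above 0 in all 18 classes, from 0.22 in neutrophils to 2.11 in CAFs. The 6 T cell markers summed to 39.6 to 280 CPM in 12 classes outside the T and NK lineages in the PBS library and to 88.3 to 309 CPM in the anti–PD-1 library, and were higher in the latter in 9 of 12, with none of them at 0. In tumor or biliary epithelial cells this sum was 82.7 and 149 CPM, and in macrophages without Kupffer markers 98.6 and 133 CPM. Markers of myeloid cells were higher in anti–PD-1 tumor or biliary epithelial cells as well, with sums of 165 and 863 CPM for the 6 neutrophil, 376 and 768 CPM for the 6 macrophage and 73.0 and 319 CPM for the 4 Kupffer markers, none of them at 0. The part of these in the *Il2ra*, *Il2rb*, *Il2rg*, *Il21r* and *Il7r* values of those classes was not tested.

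Over all kept cells, 5 members were higher in the anti–PD-1 library by more than 0.5 on the log2 scale, and the share of this that lay within classes differed between them. Over all 18606 genes measured there, the median log2 ratio was −0.084 and the 90th percentile 0.23. *Il2rb* went from 173 CPM [170.4, 176] to 249 CPM [246, 253], a log2 ratio of 0.51. With the class shares of RNA held at those of the PBS library it was 0.072, and with levels held and shares exchanged it was 0.47. *Il7r* was nearly even over all cells, at 127 CPM [124, 129] and 119.7 CPM [117, 122], and its log2 ratio of −0.082 turned to 0.15 with median-ratio scaling. Its lower levels within classes (−0.39) stood against a higher share of RNA from T and NK lineage cells (0.35). *Il21r* was the opposite of *Il2rb*, with 0.81 over all cells, 0.73 from levels and 0.013 from shares. *Il2rg* had 0.81, 0.69 and 0.26, *Il15* had 0.88, 0.56 and 0.32 and *Il15ra* had 0.63, 0.56 and 0.12 in the same order. T cells held 13.7% of PBS and 20.3% of anti–PD-1 UMIs, and neutrophils held 2.79% and 9.14%. By cells, T cells were 21.4% and 22.0%, with median depths of 2714.5 and 3588 UMIs, and neutrophils were 8.07% and 17.9%. Macrophages without Kupffer markers held 32.5% of PBS and 8.42% of anti–PD-1 UMIs. Shares of RNA thus differed from shares of cells.

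**Figure D5:**
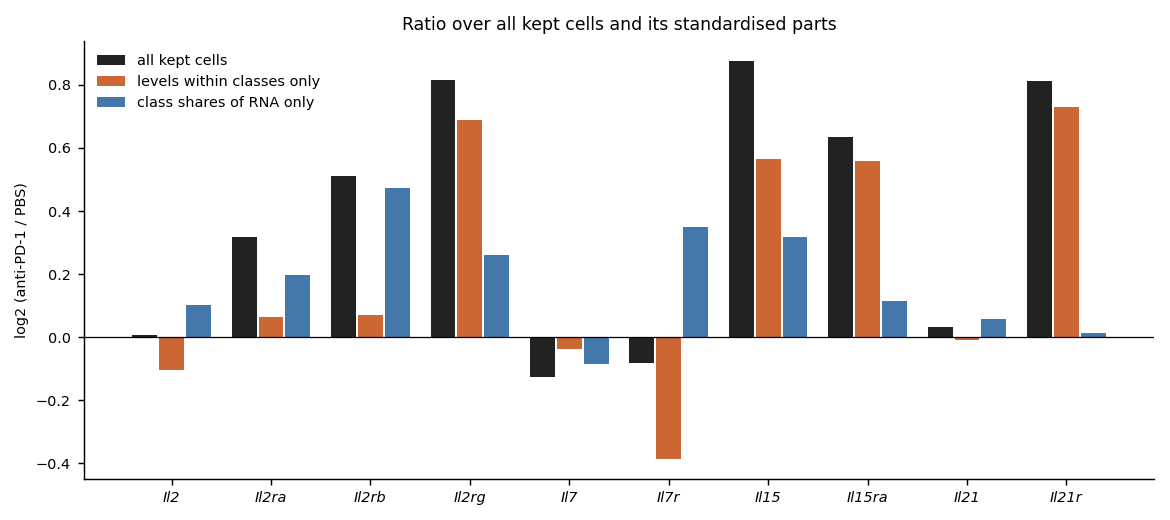
Log2 ratio of anti–PD-1 over PBS (y axis) of each gene (x axis) over all kept cells (black), with class shares of RNA held at those of the PBS library (orange) and with class levels held at those of the PBS library (blue). The *Il2rb* ratio of 0.51 falls to 0.072 with shares held, and the *Il21r* ratio of 0.81 stays at 0.73.

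Chains of one receptor were then counted in the same cells. In thinned T cells, *Il2rb* and *Il2rg* were found together in 16.9% (15.6 to 18.2) of PBS cells and 17.7% (16.4 to 19.0) of anti–PD-1 cells, where the products of the single shares were 16.4% and 17.5%. *Il21r* and *Il2rg* were found together in 3.43% (2.83 to 4.11) and 6.90% (6.09 to 7.79) of T cells, with products of 3.35% and 6.53%. *Il7r* and *Il2rb* were found together in 15.1% (13.9 to 16.4) of PBS T cells against a product of 18.1%, and in 10.6% (9.56 to 11.6) of anti–PD-1 T cells against 11.9%. In CD8 T cells the shares were 8.84% (7.10 to 10.8) against 14.1% with PBS and 9.19% (7.70 to 10.9) against 10.2% with anti–PD-1. PBS CD8 T cells with *Xist* but not Y-linked UMIs had less *Il7r* and more *Il2rb* (423 and 716 CPM) than those with Y-linked but not *Xist* UMIs (901 and 465 CPM), and the part of this mixture in the shares was not tested.

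Across 36 class sums (18 classes in 2 libraries), the gene whose level was most like that of *Il2rg* was *Il21r*, with a Pearson r of 0.90 on log2(CPM + 5) among 13840 genes, and *Il2rg* was in turn the closest to *Il21r*. *Il2ra* was closest to *Il7r* (0.92), followed by *Tnfrsf18* and *Tnfrsf9*, both genes of costimulatory receptors (0.91 each). *Il2rb* was closest to *Ctsw* (0.98), *Zap70* (0.98) and *Nkg7* (0.98), genes of cytotoxic granules and T cell receptor signaling. *Il7r* was closest to *Cd247* (0.94), *Tcf7* (0.94) and *Skap1* (0.93), and *Il15ra* to *Pfkfb3* (0.85). These correlations are descriptions, since sums of a library share its depth and preparation and related classes share lineage.

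Genes around the members were read from lists. Of the other family genes, *Il4ra*, the IL-4 receptor chain, was at 53.4 and 121 CPM in conventional CD4 T cells, a log2 ratio of 1.11, where 2.06% of genes measured in that class were higher by 2-fold or more. Not all 6 family genes had enough UMIs in each class. In CD8 T cells, conventional CD4 T cells and macrophages without Kupffer markers 4 were measured, in Treg and NK lineage cells 3 and in Kupffer cells 5. No other of those measured was past 2-fold in these classes. None of the 6 JAK and STAT genes was past 2-fold there. *Stat5a* was at 14.3 and 28.3 CPM in CD8 T cells (0.79), and *Jak3*, the kinase of the shared chain, at 43.3 and 47.8 CPM (0.13).

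STAT5-induced and feedback genes were read in each class, and differences between classes were not tested. In CD8 T cells 4 of 10 had a ratio above 0 and 6 below, with a median of −0.16 against −0.099 over all genes measured. None was past 2-fold in either direction, where 1.54% of all genes were higher and 1.21% lower by 2-fold or more. *Bcl2*, the survival gene downstream of IL-7, was at 334 and 196 CPM (−0.75), *Ccnd2* at 547 and 299 CPM (−0.86) and the feedback inhibitor *Cish* at 117 and 66.8 CPM (−0.77). These genes were named in CD8 T cells after their values were seen, and IL-7 signaling was not tested. *Pim1*, a kinase gene induced by several cytokines, was higher, at 115 and 215 CPM (0.88). In NK lineage cells *Socs3* (31.7 and 99.3 CPM) and *Pim1* (232 and 652 CPM) were past 2-fold, with 2.51% of genes higher by that much. Of the 10 list genes there, 5 had a ratio above 0 and 5 below, with a median of −0.00026. *Pim1* was also past 2-fold in conventional CD4 T cells (1.19) and Treg cells (1.01), where 2.84% of genes were higher by that much in the latter. The list had 5 genes above 0 and 5 below in conventional CD4 T cells (median 0.10). In Treg cells it had 6 above and 4 below (median 0.073). In macrophages without Kupffer markers 5 of 10 were higher by 2-fold or more, against 2.54% of all genes. These were *Pim1* (67.7 and 286 CPM), *Socs3* (118 and 435 CPM), *Osm* (55.9 and 209 CPM), *Socs1* (20.5 and 63.3 CPM) and *Cish* (7.75 and 29.0 CPM), and the same 5 were past 2-fold in Kupffer cells, against 1.75% of all genes. *Socs1* also belongs to the interferon-gamma response list, and *Pim1*, *Socs3* and *Osm* answer to cytokines outside this family.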

How the data were processed

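scRNA-Seq counts were analysed as deposited. The authors supplied 1 UMI count matrix per library, and the submitters' processing notes name Seurat 4.3 and the mm10 build, while the treatment of strand and the aligner settings are not given in the sources used here. Barcodes entered with between 500 and 5000 genes detected and no more than 10% of UMIs mitochondrial. A cell joined a lineage when its mean scaled marker level reached 0.25, was 1.25 times that of the next lineage and rested on at least 2 markers. UMIs were summed per library and class. Classes needed 50 cells in each library, and ratios needed 20 UMIs over both. With 1 library per group no test was run. Doublets were scored per library against simulated ones, which marked 6.01% of PBS and 6.30% of anti–PD-1 cells, and were kept except in an alternative. Shares came from cells thinned to 1000 UMIs, and cells with fewer UMIs were left out of that step. The members and lists were chosen with earlier results of these data known. All 10 members were named, genes of the family, JAK and STAT, and STAT5 lists were named when past 2-fold in the CD8, conventional CD4, Treg, NK lineage or macrophage classes, the early response and interferon-gamma lists were given by their medians and not by gene as had been planned, and some list genes below this (*Bcl2*, *Ccnd2*, *Cish*, *Stat5a* and *Jak3* in CD8 T cells) were chosen after their values were seen. The 3 genes most like a member were ranked among genes with 200 UMIs. Limiting the PBS library to cells with *Xist*, leaving out the cell with the most UMIs of a gene in each library and the finer gates were alternatives chosen after seeing the data. Some finer gates are not reported here. The intervals were run on Poisson counts drawn from PBS T cell sums of genes with at least 200 UMIs, without clumping of UMIs in single cells. The gate was run on cells drawn from the summed profiles of its own PBS classes. Both runs check the code and cannot show accuracy in real cells or at low counts. Python 3.11.15, numpy 2.4.6, scipy 1.17.1, pandas 2.3.3 and scikit-learn 1.9.0 were used.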

Additional observations from a re-analysis of the deposited data

Results flagged for a closer look

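Some genes had counting intervals above 0 in one class and below 0 in another. *Il2ra* had a log2 ratio of 0.85 in NK lineage cells and −0.67 in conventional CD4 T cells. *Il7r* had 0.82 in plasma cells and −0.84 in cDC1. Without the cell with the most *Il7r* UMIs in each library, which held 9 of 27 anti–PD-1 UMIs in plasma cells and 7 of 12 in cDC1, these values were 0.66 [−0.039, 1.35] and −1.28 [−2.13, −0.43]. *Il21* had 0.89 in other T cells and −0.98 in conventional CD4 T cells, but 1 anti–PD-1 cell held 21 of the 33 UMIs of the former, and without the cell with the most UMIs in each library the values were 0.28 [−0.17, 0.72] and −0.93 [−1.40, −0.47]. These differences between classes were not tested, since each group was 1 library.

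Cells that met no gate entered no comparison of classes. Of the 9 members measured in these unassigned cells, 6 had a counting interval above 0, as did 16.3% of all genes measured there. The log2 ratios were 0.67 for *Il2rb*, 0.94 for *Il2rg* and 1.26 for *Il21r*, whose intervals lay above 0.5, and 0.34 for *Il2ra*, 0.30 for *Il15* and 0.51 for *Il15ra*.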

How the results depend on the processing

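No paired analysis was possible because each group was 1 library, and leaving out a library would leave no comparison. *Il2rg* had no interval below 0 under any of 12 alternatives and 7 to 17 above it, and *Il21r* had none below and 4 to 14 above. Fewer classes were measured where fewer cells were left. *Il2rg* had 7 of 9 above 0 in cells with Y-linked but not *Xist* UMIs. *Il21r* had 4 of 9 with at most 1 marker of another lineage, against 13 of 17 before. It had 5 of 8 in cells with Y-linked but not *Xist* UMIs and 7 of 11 after thinning. Alternatives were given only where a class kept 50 cells per library and 20 UMIs, except *Il21* in other T cells without the cell with the most UMIs.

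Scaling by the median ratio gave *Il2rb* 0.016 in CD8 T cells and 0.035 in NK lineage cells, *Il2rg* 0.40 in CD8 T cells and 1.23 in macrophages without Kupffer markers, *Il7r* −0.54 in CD8 T cells and 0.15 over all cells, and *Il15* 1.02 in neutrophils. Without an upper limit on detected genes *Il7r* was −0.77 in CD8 T cells and 0.055 over all cells. Leaving out marked doublets gave *Il2rg* 1.14 in macrophages without Kupffer markers.

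Allowing at most 1 marker of another lineage gave CD8 T cells 0.25 for *Il2ra* (−0.093 in those not cycling), −0.31 for *Il2rb* and −0.79 for *Il7r*, and conventional CD4 T cells −2.13 for *Il2* and −0.32 for *Il2ra*. It gave −0.048 for *Il21r* in NK lineage cells, 1.28 for *Il15* in Kupffer cells and 0.96 for *Il2rg* in macrophages without Kupffer markers. Thinning to 1000 UMIs gave CD8 T cells 1.07 for *Il2ra*, −0.015 for *Il2rb*, −0.79 for *Il7r* and 1.26 for *Il21r*, conventional CD4 T cells −0.19 for *Il2ra*, NK lineage cells −0.61 for *Il21r*, and all cells −0.058 for *Il2ra*.

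Limiting both libraries to cells with Y-linked but not *Xist* UMIs left 75 PBS and 790 anti–PD-1 CD8 T cells, in which *Il2rb* was 0.44, *Il2rg* 0.58, *Il7r* −1.48 and *Il21r* 1.26. The same limit gave 0.16 for *Il21r* in B cells, 0.80 for *Il15* in Kupffer cells, 1.15 for *Il2rg* in macrophages without Kupffer markers and 2.86e-05 for *Il7* over all cells. With the PBS library limited to cells with *Xist* but not Y-linked UMIs, CD8 T cells had −0.21 for *Il2rb*, 0.15 for *Il2rg* and −0.30 for *Il7r* (−0.12 in those not cycling). There *Il7r* was 0.16 in conventional CD4 T cells and 0.26 over all cells, *Il2rb* was 0.028 in other T cells, *Il2ra* 0.44 in NK lineage cells, *Il21r* 0.80 in B cells and *Il15* 1.65 in neutrophils. The cause of these shifts was not tested. Depth limits *Il2*, *Il7* and *Il21* most, with 68 to 189 UMIs per library.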
